A study of Mus musculus with 23 samples.

Results

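Foxp3+ regulatory T (Treg) cells of mouse peripheral lymph nodes that carried both CD103 and Klrg1 on their surface were compared with Foxp3+ cells of the same nodes that carried neither. The arrays were chosen by their labels. They are the 2 arrays labelled TregCD103+Klrg1+ and the 2 labelled TregCD103-Klrg1-, which makes 4 of the 23 arrays of the series. The 2 arrays labelled TregCD103+Klrg1-, with CD103 alone, served as an intermediate subset. Treg cells depend on the transcription factor Foxp3 and hold other immune cells in check. Resting Treg cells circulate through lymphoid organs, whereas activated, or effector, Treg cells acquire receptors and mediators for work in tissues. CD103, the integrin alpha chain encoded by Itgae, pairs with integrin beta 7 and binds E-cadherin of epithelium. Klrg1 is an inhibitory lectin-like receptor for cadherins and marks strongly differentiated T cells.

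All 3 subsets came from male C57BL/6-Foxp3/GFP reporter mice of 6 to 10 weeks of age, which report Foxp3 by green fluorescence. The mice received no treatment named in the labels. Cells were sorted as CD3+, CD4+ and GFP+, and as negative for B220, CD8a and CD11b/c, before they were divided by CD103 and Klrg1. Each array held RNA pooled from 4 to 6 mice, amplified before it was hybridised to an Affymetrix M430v2 array, so no array stands for 1 animal. The labels do not say whether arrays with the same replicate number came from 1 pool, and p-values measure only the spread between arrays. The remaining arrays entered through the shared estimate of spread, the limit and filter for dim genes, the choice of probe set and the ranking of genes most like Klrg1. Levels are also given below for a few genes in Foxp3-GFP+ cells of the intestinal lamina propria (LP Treg) of the same reporter strain. Those remaining groups were the LP Treg cells and their Foxp3-GFP- counterparts (2 arrays each), BDC2.5/NOD Foxp3+ and Foxp3- cells 14 days after transfer into NOD RAG-/- hosts (3 each), and CD25+ (3) and CD25- (4) cells 3 weeks after HA6.5/Thy1.2/RAG-/-/Balb/c T cells were transferred into Balb/c hosts given 50 ng DEC-HAPeptide.

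Values are log2 of the deposited intensity, a unit without absolute meaning, so levels are compared between arrays for 1 gene and never between genes. A level of 6.27, the median of all deposited values, was taken as the limit of reliable signal. A gene is said to have risen or fallen when its adjusted p was under 0.05 in a limma fit over 12516 genes, with Benjamini-Hochberg adjustment. Where the lower group's mean was under 6.27, the fold is written as "at least", with every dimmer value of that group set to 6.27, and no SE is given. The 6 lymph node arrays had median intensities of 75.5 to 78.2. The log2 difference between the 3' and 5' probe sets of Gapdh, a measure of RNA truncation, was 3.15 and 2.88 in CD103+Klrg1+ cells and 3.01 and 2.80 in CD103-Klrg1- cells. The Pearson correlation across all probe sets was 0.987 between the CD103+Klrg1+ arrays, 0.991 between the CD103+Klrg1- arrays and 0.989 between the CD103-Klrg1- arrays. Some arrays were closer to the same-numbered array of another subset than to their own replicate, with 0.989 between the first CD103+Klrg1+ and first CD103+Klrg1- arrays, and 0.994 between the first CD103+Klrg1- and first CD103-Klrg1- arrays.

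The sort was visible in the RNA. Klrg1 read 14.14 and 14.18 in CD103+Klrg1+ cells, 8.95 and 8.86 in CD103+Klrg1- cells, and 7.53 and 7.69 in CD103-Klrg1- cells. Itgae read 13.48 and 13.04 in CD103+Klrg1+ cells, 12.59 and 13.02 in CD103+Klrg1- cells, and 8.41 and 7.77 in CD103-Klrg1- cells. Klrg1 was thus high in the subset sorted for it alone, and Itgae was high in both CD103+ subsets. The differences between CD103+Klrg1+ and CD103-Klrg1- cells were 6.55 ± 0.41 for Klrg1 and 5.17 ± 0.61 for Itgae (log2, ± SE). Since these genes encode the sorted proteins, their differences are a check of the labels and no finding. Foxp3, on which all cells were sorted, read 11.50 and 10.89 in CD103+Klrg1+ cells and 10.62 and 10.08 in CD103-Klrg1- cells. Its difference of 0.84 ± 0.36 did not pass the test (limma adjusted p = 0.568). Il2ra, the alpha chain of the interleukin-2 receptor that marks Treg cells, read 11.56 and 10.90 in CD103+Klrg1+ cells and 11.39 and 11.06 in CD103-Klrg1- cells. The difference was 0.01 ± 0.38, with overlapping arrays (limma adjusted p = 1). Of 7 genes of alpha-beta T cells that were tested, limma called none, 1 had an unadjusted p under 0.05, and the median difference was 0.01.

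Genes of other cells were also measured, and B cell genes were higher in CD103+Klrg1+ cells as a sum. All 11 B cell genes tested had a difference above 0, with a median of 0.71. Of all 12516 genes tested, 5955 had a difference above 0. limma called none, and 3 had an unadjusted p under 0.05. Over the 13 B cell genes on the array, summed intensity was 12094.8 and 15501.6 in CD103+Klrg1+ cells, 8728.4 and 7302.0 in CD103+Klrg1- cells, and 7890.2 and 6865.1 in CD103-Klrg1- cells. Ighm, an antibody heavy chain, was the brightest of the 13 on every lymph node array and so the largest part of each sum. Ighm read 12.60 and 12.21 in CD103+Klrg1+ cells, 11.87 and 12.02 in CD103+Klrg1- cells, and 11.46 and 10.96 in CD103-Klrg1- cells. In every subset 2 of the 13 were below the limit, among them Cd79a, a chain of the B cell receptor. Ms4a1, which encodes the B cell protein CD20, read 9.84 and 10.88 in CD103+Klrg1+ cells and 9.61 and 9.65 in CD103-Klrg1- cells. The higher of these arrays, the second of CD103+Klrg1+ cells, was also the higher one for the myeloid genes Csf1r and Mpeg1 in that subset.

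Of 16 myeloid and dendritic cell genes tested, 1 was called, Ccr2, which T cells also use. Of all genes tested, 2.1% were called. Besides Ccr2, 17 myeloid and dendritic cell genes were on the array. These 17 summed to 1877.9 to 3114.4 in CD103+Klrg1+ cells, against 1801.6 to 2082.1 in CD103-Klrg1- cells, and 7 of them were below the limit in each of these groups. Genes of CD8 T and natural killer cells summed to 638.5 and 1196.7 in CD103+Klrg1+ cells, against 700.7 and 806.4 in CD103-Klrg1- cells, with 7 and 8 of the 11 below the limit. Both lists thus overlapped between the groups. Plasma cell genes without Prdm1 summed to 4063.9 to 5450.5 in CD103+Klrg1+ cells and 3210.8 to 4782.2 in CD103-Klrg1- cells. Genes of innate lymphoid and mast cells without Il17rb summed to 917.9 to 978.1 in CD103+Klrg1+ cells and 785.1 to 902.8 in CD103-Klrg1- cells, with 8 and 7 of 10 below the limit. Stromal and endothelial genes summed to 6246.4 to 7679.1 in CD103+Klrg1+ cells and 3735.3 to 5501.1 in CD103-Klrg1- cells, with 8 and 7 of 11 below the limit and Vim, which T cells make, by far the brightest. Without the second CD103+Klrg1+ array, 201 genes were called between the groups, 184 of them shared with the full comparison below. The part of other cells in the differences was not tested further, and in bulk RNA a change in the share of a cell type and a change in RNA per cell cannot be told apart.

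**Figure D1:**
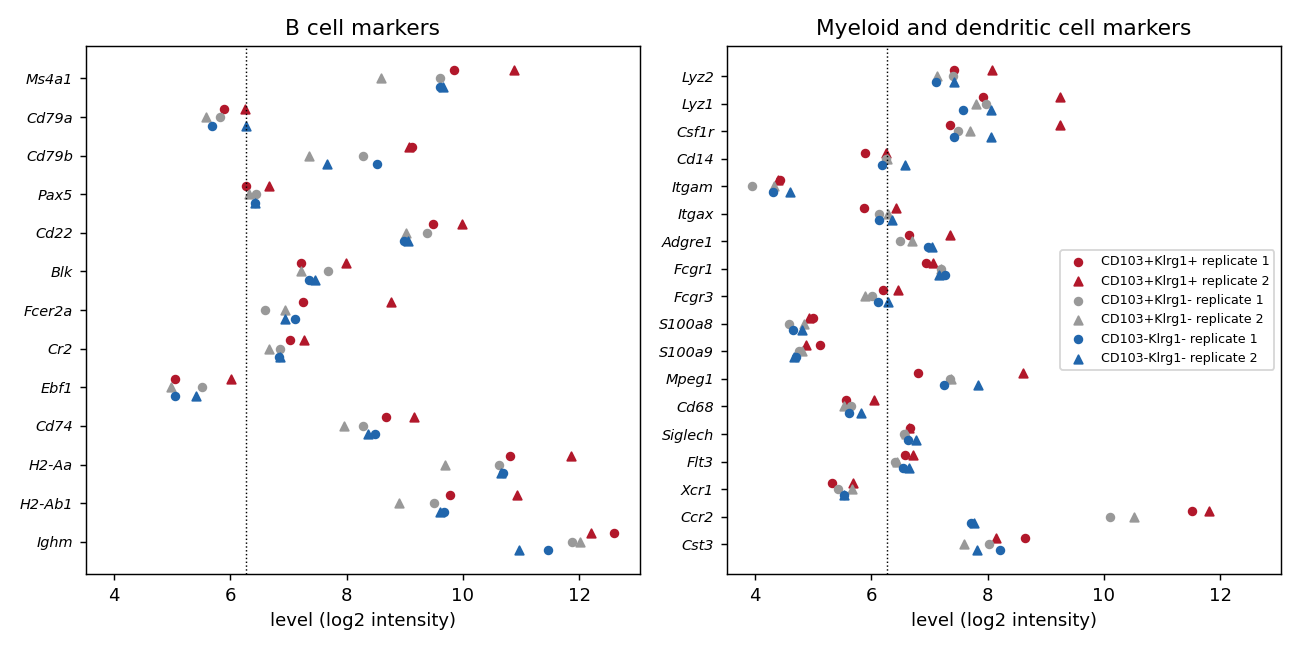
Log2 intensity of each B cell marker (left) and each myeloid or dendritic cell marker (right) on the 6 lymph node arrays, with colours for the subsets, circles for replicate 1 and triangles for replicate 2. The dotted line is the limit of 6.27. Ms4a1 reached 10.88 on the second CD103+Klrg1+ array, whereas Ccr2 was high on both CD103+Klrg1+ arrays, at 11.51 and 11.81.

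Of the 12516 genes tested, 263 (2.1%) differed between CD103+Klrg1+ and CD103-Klrg1- cells. CD103+Klrg1+ cells had 184 higher genes (1.47%) and 79 lower genes (0.631%), against a median difference over all genes of -0.012. The arrays of the groups did not overlap for any of the 263, and for all genes that share was 36.8%. The fitted change was 2-fold or more in 175 of the higher and 74 of the lower genes, and 8-fold or more in 24 higher and 3 lower genes. In 76 of the called genes the lower group's mean was under the limit, and 3 of the higher and 2 of the lower genes had passed the filter through the mean of their brighter group alone. The number of calls depended on single arrays. It was 127 without the first CD103+Klrg1+ array, 149 without the first CD103-Klrg1- array and 124 without the second, and all 263 genes kept their sign in each of these fits. Those signs could not have changed, since the arrays of the groups did not overlap for any of the 263. With the 6 lymph node arrays fitted alone, 467 genes were called, of which 247 were among the 263. The count was 398 without the 2 dimmest DEC CD25- arrays and 599 with array weights, and both included all 263. With the 4 compared arrays alone, 266 genes were called, 184 of them among the 263, and Bach2, Bcl2, Evl, Igfbp4, Il10, Il17rb, Jdp2, Nrn1, Penk, Plagl1, Rhbdf1, Sgk1, St8sia6 and Treml2, which are described below, were not called. Of the called genes, 110 had several probe sets above the limit of reliable signal, and in 9 of these the probe sets differed in sign, among them Nav2 and Tnfrsf1b.

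**Figure D2:**
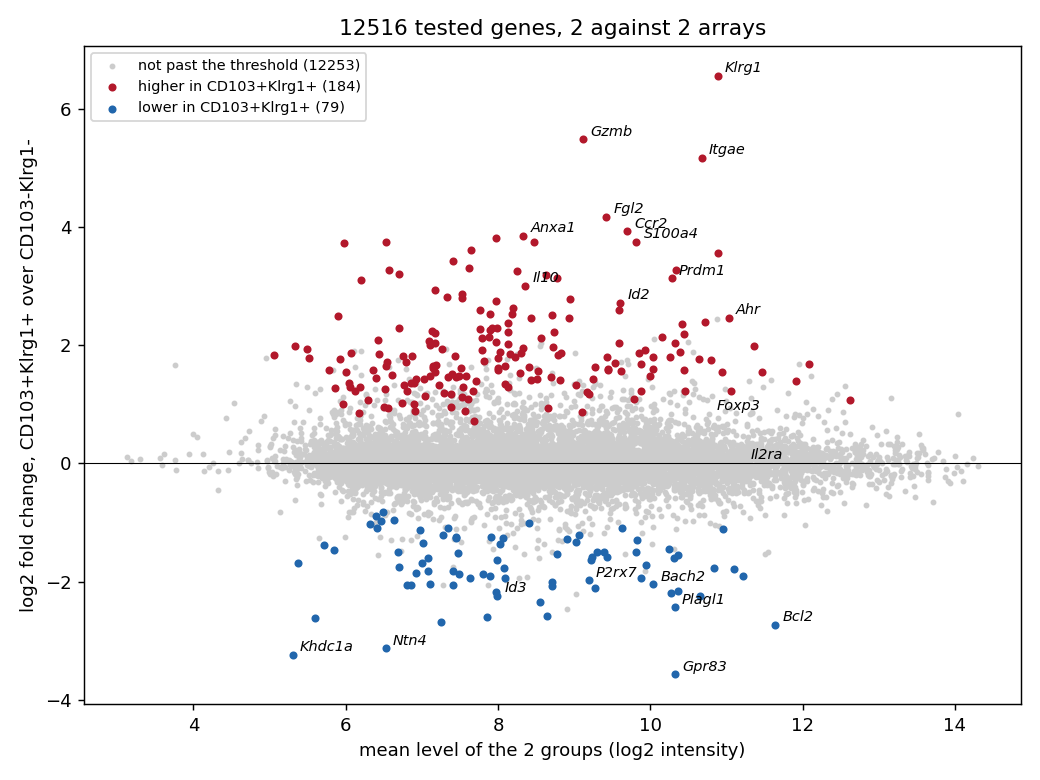
Log2 fold change of CD103+Klrg1+ over CD103-Klrg1- cells (vertical) against the mean log2 intensity of both groups (horizontal), 1 point for each of the 12516 genes tested. The 184 higher and 79 lower genes are coloured, and Klrg1, Gzmb and Itgae stand farthest above 0 while Gpr83 stands farthest below it.

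Several mediators of suppression and tissue repair were among the strongest rises. Of 15 such genes tested, 5 rose and none fell, and the list's median difference was 1.44, against 1.47% of all genes higher and a median of -0.012. The lists and the markers, Gzmb and Fgl2 among them, were chosen with earlier results of these data known. List counts, here and below, are therefore no independent support. Gzmb, which encodes the cytotoxic protease granzyme B, read 11.83 and 11.88 in CD103+Klrg1+ cells, 8.75 and 9.21 in CD103+Klrg1- cells, and 6.45 and 6.31 in CD103-Klrg1- cells. The 3 subsets did not overlap, and the difference between the outer subsets was 5.48 ± 0.31 (limma adjusted p = 2.08e-08). Gzmb was the only one of 13 cytotoxic granule genes tested to be called, and Gzma read 6.68 and 7.77 in CD103+Klrg1+ cells and 5.87 and 6.44 in CD103-Klrg1- cells (limma adjusted p = 0.43). Fgl2, a secreted fibrinogen-like protein with suppressive activity, read 11.69 and 11.33 in CD103+Klrg1+ cells, 10.03 and 10.25 in CD103+Klrg1- cells, and 7.49 and 7.19 in CD103-Klrg1- cells, a difference of 4.17 ± 0.41 (limma adjusted p = 6.3e-06). Its levels were ordered as those of Gzmb, without overlap. Il10, the anti-inflammatory cytokine, read 10.18 and 9.54 in CD103+Klrg1+ cells, 9.19 and 8.50 in CD103+Klrg1- cells, and 7.51 and 6.20 in CD103-Klrg1- cells. It rose by 3.01 ± 0.50 (limma adjusted p = 0.00163), and the call was lost without the second CD103-Klrg1- array (adjusted p = 0.0643). Penk, the precursor of enkephalin peptides, rose by 2.46 ± 0.44, with 10.86 and 9.47 in CD103+Klrg1+ cells and 8.14 and 7.25 in CD103-Klrg1- cells. In Penk the first array of each group was the higher. Penk was not called without the first CD103+Klrg1+ or the second CD103-Klrg1- array, nor with the 6 lymph node arrays alone.

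**Figure D3:**
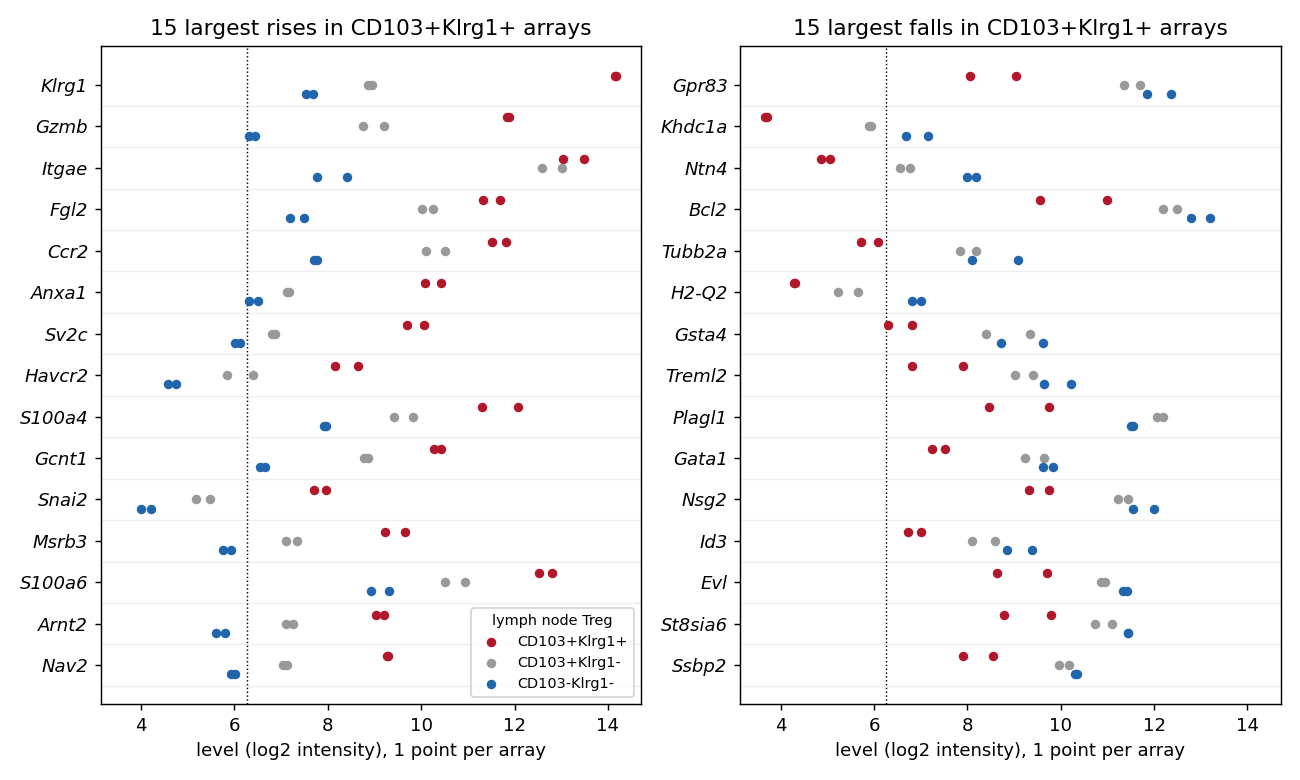
Log2 intensity of the 15 largest rises (left) and 15 largest falls (right), 1 point per lymph node array, with CD103+Klrg1+, CD103+Klrg1- and CD103-Klrg1- cells in red, grey and blue. The dotted line is the limit of 6.27. Gzmb fell into 3 separate levels, near 11.86 in CD103+Klrg1+ cells, whereas Bcl2 in CD103+Klrg1- cells (12.49 and 12.18) was nearer to its level in CD103-Klrg1- cells.

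The promoters of 4 genes are given because these genes carry the comparison. Gzmb and Fgl2 were the largest rises beside the sorted markers, Gpr83 was the largest fall, and Bcl2 was the fall among the marker genes of these cells. Each runs 5′ to 3′ on the gene's strand from 250 bases before to 50 bases after the start, from RefSeq on GRCm38.p6, and capitals mark the motif matches found. Gzmb lies at chr14:56262285-56262584 on the minus strand, Fgl2 at chr5:21372423-21372722 on the plus strand, Gpr83 at chr9:14859960-14860259 on the plus strand, and Bcl2 at chr1:106714241-106714540 on the minus strand.
Gzmb: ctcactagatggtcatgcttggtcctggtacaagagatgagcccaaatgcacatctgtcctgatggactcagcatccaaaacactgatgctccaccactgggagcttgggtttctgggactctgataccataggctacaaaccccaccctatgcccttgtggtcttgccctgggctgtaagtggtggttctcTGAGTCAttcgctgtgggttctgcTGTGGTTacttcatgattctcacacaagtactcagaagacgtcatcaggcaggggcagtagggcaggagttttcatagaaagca
Fgl2: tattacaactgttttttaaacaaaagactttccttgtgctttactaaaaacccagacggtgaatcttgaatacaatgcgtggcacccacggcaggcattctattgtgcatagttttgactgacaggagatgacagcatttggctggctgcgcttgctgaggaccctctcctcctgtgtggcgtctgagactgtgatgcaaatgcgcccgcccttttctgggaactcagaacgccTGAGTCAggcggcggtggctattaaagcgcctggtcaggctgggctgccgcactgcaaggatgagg
Gpr83: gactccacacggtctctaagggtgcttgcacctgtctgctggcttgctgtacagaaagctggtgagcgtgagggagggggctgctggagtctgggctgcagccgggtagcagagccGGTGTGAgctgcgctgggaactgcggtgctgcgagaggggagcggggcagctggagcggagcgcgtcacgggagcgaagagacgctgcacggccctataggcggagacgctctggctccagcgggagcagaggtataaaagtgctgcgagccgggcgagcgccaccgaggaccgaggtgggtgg
Bcl2: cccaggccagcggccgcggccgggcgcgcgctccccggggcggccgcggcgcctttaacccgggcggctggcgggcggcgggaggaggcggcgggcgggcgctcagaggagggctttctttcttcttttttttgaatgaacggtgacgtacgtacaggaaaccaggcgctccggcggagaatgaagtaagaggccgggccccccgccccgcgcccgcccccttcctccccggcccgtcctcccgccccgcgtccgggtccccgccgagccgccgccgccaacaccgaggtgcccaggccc
On both strands, 4 motifs were searched, namely CTTTGA of the TCF/LEF factors, GGTGTGA of the T-box factors, TGTGGTT of the Runx factors and TGANTCA of AP-1. Positions give the first base of a match relative to the start. The Gzmb window held the AP-1 letters at -58 and the Runx letters at -34, the Fgl2 window held AP-1 at -16, the Gpr83 window held T-box at -134, and these letters were not found in the Bcl2 window. No matches overlapped in these windows. A promoter was listed for 142 of the 184 higher genes, 63 of the 79 lower genes and 10114 of the 12516 genes tested. AP-1 letters were in 9.15% of the promoters of higher genes and 6.35% of those of lower genes, against 5.43% for all genes tested. Runx letters were in 7.04% of the higher and 3.17% of the lower genes, against 3.9% of all. T-box letters were in 4.23% of the higher and 3.17% of the lower genes, against 3.57% of all. TCF/LEF letters were in 9.86% of the higher and 12.7% of the lower genes, against 12.6% of all. These shares are descriptions without a test, and a match does not show a binding site.

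Several receptors that guide cells into tissues were higher. Of 14 chemokine receptors tested, 5 rose and none fell, with a median difference of 1.19, against 1.47% of all genes higher. Ccr2, which draws cells to sites of inflammation, read 11.51 and 11.81 in CD103+Klrg1+ cells, 10.11 and 10.52 in CD103+Klrg1- cells, and 7.71 and 7.76 in CD103-Klrg1- cells. Its difference was 3.92 ± 0.38 (limma adjusted p = 5.73e-06), and the differences of the gene's probe sets above the limit ranged from 0.98 to 3.92. Gpr15, a receptor for homing to the large intestine, read 10.23 and 10.43 in CD103+Klrg1+ cells, 9.94 and 9.97 in CD103+Klrg1- cells, and 7.66 and 7.45 in CD103-Klrg1- cells. Most of its difference of 2.78 ± 0.38 was thus present in the CD103+Klrg1- cells. Ccr10, a receptor for skin and mucosal chemokines, showed the other order, with 8.17 and 8.32 in CD103+Klrg1+ cells, 6.46 and 6.88 in CD103+Klrg1- cells, and 6.32 and 6.28 in CD103-Klrg1- cells. It rose by 1.94 ± 0.23. Cxcr6, found on tissue-dwelling T cells, read 8.37 and 8.91 in CD103+Klrg1+ cells against 5.28 and 6.12 in CD103-Klrg1- cells, at least 5.18-fold higher. Cxcr3, a receptor of interferon-induced chemokines, rose by 1.88 ± 0.41. The Cxcr3 call was lost without either CD103+Klrg1+ array or without the second CD103-Klrg1- array. Ccr7, which admits cells to lymph nodes and was looked at after its values were seen, had a difference of -1.95 and was not called (limma adjusted p = 0.127).

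Among 13 genes of recirculation and retention, Gcnt1 alone was called, and of all genes tested 2.1% were called. Gcnt1 makes branched glycans that selectins bind, and it read 10.27 and 10.42 in CD103+Klrg1+ cells, 8.77 and 8.87 in CD103+Klrg1- cells, and 6.66 and 6.55 in CD103-Klrg1- cells. The difference of 3.74 ± 0.33 (limma adjusted p = 2.52e-06) was near that of Ccr2. Of 13 integrin chains tested, Itgae alone was called, and of 7 killer lectin-like receptors 2 rose, Klrg1 and Klrb1f. Itgae and Klrg1 encode the sorted proteins, so their calls are no finding about these families. Klrb1f rose by 1.61 ± 0.35, with 8.35 and 8.28 in CD103+Klrg1+ cells against 6.79 and 6.62 in CD103-Klrg1- cells, and its call was lost when any of these 4 arrays was left out.

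Annexins, which bind membranes, S100 proteins, which bind calcium, and galectins, which bind sugars, are often raised in effector and memory T cells. Of 19 annexins, S100 proteins and galectins tested, 5 rose and none fell, with a median of 0.54, against 1.47% of all genes higher. Anxa1, an annexin that dampens inflammation, read 10.09 and 10.43 in CD103+Klrg1+ cells, 7.17 and 7.13 in CD103+Klrg1- cells, and 6.31 and 6.51 in CD103-Klrg1- cells. Its difference was 3.85 ± 0.33 (limma adjusted p = 1.41e-06), and it was 2.00 when the probe sets of each gene were averaged. S100a4, linked to cell motility, read 12.07 and 11.31 in CD103+Klrg1+ cells, 9.83 and 9.41 in CD103+Klrg1- cells, and 7.96 and 7.93 in CD103-Klrg1- cells. S100a6, a relative of S100a4, read 12.81 and 12.53 in CD103+Klrg1+ cells, 10.93 and 10.50 in CD103+Klrg1- cells, and 9.32 and 8.92 in CD103-Klrg1- cells. The differences were 3.75 ± 0.49 for S100a4 and 3.55 ± 0.43 for S100a6, and both genes lay at 3 separate levels. Anxa4 rose by 1.91 ± 0.33, a call lost without the first CD103-Klrg1- array. The galectin gene Lgals3 was at least 4.03-fold higher. Lgals3 read 8.49 and 8.07 in CD103+Klrg1+ cells, 5.78 and 5.70 in CD103+Klrg1- cells, and 6.15 and 5.98 in CD103-Klrg1- cells, so among the lymph node subsets it was above the limit in CD103+Klrg1+ cells alone. Without the first CD103+Klrg1+ or the second CD103-Klrg1- array, Lgals3 was not called, with an adjusted p of up to 0.0936.

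In the wider list of 27 effector and memory T cell genes, which shares Anxa1, S100a4, S100a6, Lgals3, Cxcr3 and Cxcr6 with the lists above, 10 rose and none fell. The list's median was 1.05, and 1.47% of all genes tested were higher. Glrx, a glutaredoxin that reduces oxidised thiols, rose by 2.40 ± 0.37, with 11.89 and 11.95 in CD103+Klrg1+ cells against 9.65 and 9.39 in CD103-Klrg1- cells. Il18r1, a chain of the interleukin-18 receptor, rose by 1.60 ± 0.27, with 10.30 and 10.19 in CD103+Klrg1+ cells, 9.83 and 9.99 in CD103+Klrg1- cells, and 8.72 and 8.56 in CD103-Klrg1- cells. Il17rb, a receptor chain for interleukin-25, read 9.49 and 8.40 in CD103+Klrg1+ cells, 7.77 and 7.84 in CD103+Klrg1- cells, and 6.93 and 6.69 in CD103-Klrg1- cells. The second CD103+Klrg1+ array was farther from the first than from the CD103+Klrg1- arrays. The difference was 2.13 ± 0.31, and the call was lost with the 4 compared arrays alone. Il18r1 and Il17rb were the only 2 of 23 cytokine receptors outside the common gamma chain family to be called, and Il7r was the only one of 7 within it.

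Several transcription factors of effector cells rose. Of 19 effector Treg regulators tested, 5 rose and none fell, with a median of 0.59, against 1.47% of all genes higher. Prdm1, which encodes Blimp-1, a repressor that drives effector differentiation, read 11.89 and 11.80 in CD103+Klrg1+ cells, 10.76 and 10.89 in CD103+Klrg1- cells, and 8.78 and 8.65 in CD103-Klrg1- cells. The 3 subsets were separate, and the difference was 3.13 ± 0.41 (limma adjusted p = 1.36e-04). Id2, an inhibitor of E proteins, read 11.03 and 10.90 in CD103+Klrg1+ cells, 9.24 and 8.89 in CD103+Klrg1- cells, and 8.04 and 8.46 in CD103-Klrg1- cells, a rise of 2.72 ± 0.38. Ahr, a ligand-activated factor of barrier tissues, rose by 2.46 ± 0.41, with 12.29 and 12.23 in CD103+Klrg1+ cells against 9.87 and 9.73 in CD103-Klrg1- cells. The differences of its probe sets above the limit ranged from 0.05 to 2.46, and Id2 was not called with the most variable probe set of each gene (adjusted p = 0.202). Rora, a nuclear receptor known in skin Treg cells, rose by 2.13 ± 0.36 and was also the only one of 16 helper lineage genes called. Its probe sets above the limit had differences of 0.42 to 2.29. Maf, which drives Il10 transcription in T cells, read 12.28 and 12.44 in CD103+Klrg1+ cells, 12.01 and 12.01 in CD103+Klrg1- cells, and 10.40 and 10.35 in CD103-Klrg1- cells. A share of 0.82 of the Maf difference of 1.98 ± 0.40 was present in CD103+Klrg1- cells. The Maf call was lost when any of the 4 compared arrays was left out.

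A few regulators of the naive state fell. Of 15 naive T cell regulators tested, 2 fell and none rose, and 1 had a difference above 0 (median -0.44). Of all 12516 genes, 0.631% were lower and 5955 had a difference above 0. Bach2, a repressor that restrains effector programmes, read 8.38 and 9.65 in CD103+Klrg1+ cells, 10.49 and 10.15 in CD103+Klrg1- cells, and 10.74 and 11.38 in CD103-Klrg1- cells. Id3, an inhibitor of E proteins in resting Treg cells, read 7.02 and 6.73 in CD103+Klrg1+ cells, 8.60 and 8.09 in CD103+Klrg1- cells, and 9.38 and 8.84 in CD103-Klrg1- cells. The differences were -2.05 ± 0.50 for Bach2 (limma adjusted p = 0.0388) and -2.23 ± 0.56 for Id3 (limma adjusted p = 0.0465). Each call was lost in 8 of 21 alternative fits, and both were lost without the first CD103+Klrg1+ array, either CD103-Klrg1- array or either CD103+Klrg1- array, and that of Id3 also without the second CD103+Klrg1+ array. Bach2 had an adjusted p of 0.726 without the first CD103+Klrg1+ array, and Id3 one of 0.397 without the first CD103-Klrg1- array. Id2 was thus higher and Id3 lower in the same CD103+Klrg1+ cells.

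Of 23 naive and central T cell genes, 6 fell and 1 rose, against 0.631% of all genes lower and 1.47% higher. The list's median was -0.95. Gpr83, a peptide receptor known as a Treg marker, read 9.04 and 8.05 in CD103+Klrg1+ cells, 11.70 and 11.36 in CD103+Klrg1- cells, and 12.37 and 11.85 in CD103-Klrg1- cells. It fell by 3.57 ± 0.35 on the log2 scale (limma adjusted p = 6.31e-06), the largest fall of the comparison, and CD103+Klrg1- cells were close to CD103-Klrg1- cells. Nsg2, a vesicle protein, fell by 2.25 ± 0.35, with 9.32 and 9.74 in CD103+Klrg1+ cells against 11.99 and 11.56 in CD103-Klrg1- cells. Treml2, a receptor of the TREM family, fell by 2.58 ± 0.45 and read 6.80 and 7.91 in CD103+Klrg1+ cells against 10.23 and 9.64 in CD103-Klrg1- cells. St8sia6, a sialyltransferase, fell by 2.15 ± 0.46 and Igfbp4, which binds insulin-like growth factors, by 1.77 ± 0.38. The Igfbp4 probe sets above the limit had differences of -2.56 to -0.23. The calls of Treml2, St8sia6 and Igfbp4 were each lost without the first CD103+Klrg1+ array and without the first CD103-Klrg1- array, and those of St8sia6 and Igfbp4 also without the second. The member that rose was Il7r, the interleukin-7 receptor alpha chain, with 13.14 and 13.17 in CD103+Klrg1+ cells against 11.97 and 12.21 in CD103-Klrg1- cells. Its rise of 1.07 ± 0.23 was not called when any of these 4 arrays was left out, or with either other probe set rule. Satb1 and Lef1, factors of resting T cells that were looked at after their values were seen, had differences of -1.50 for Satb1 and -0.86 for Lef1 and were not called.

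**Figure D4:**
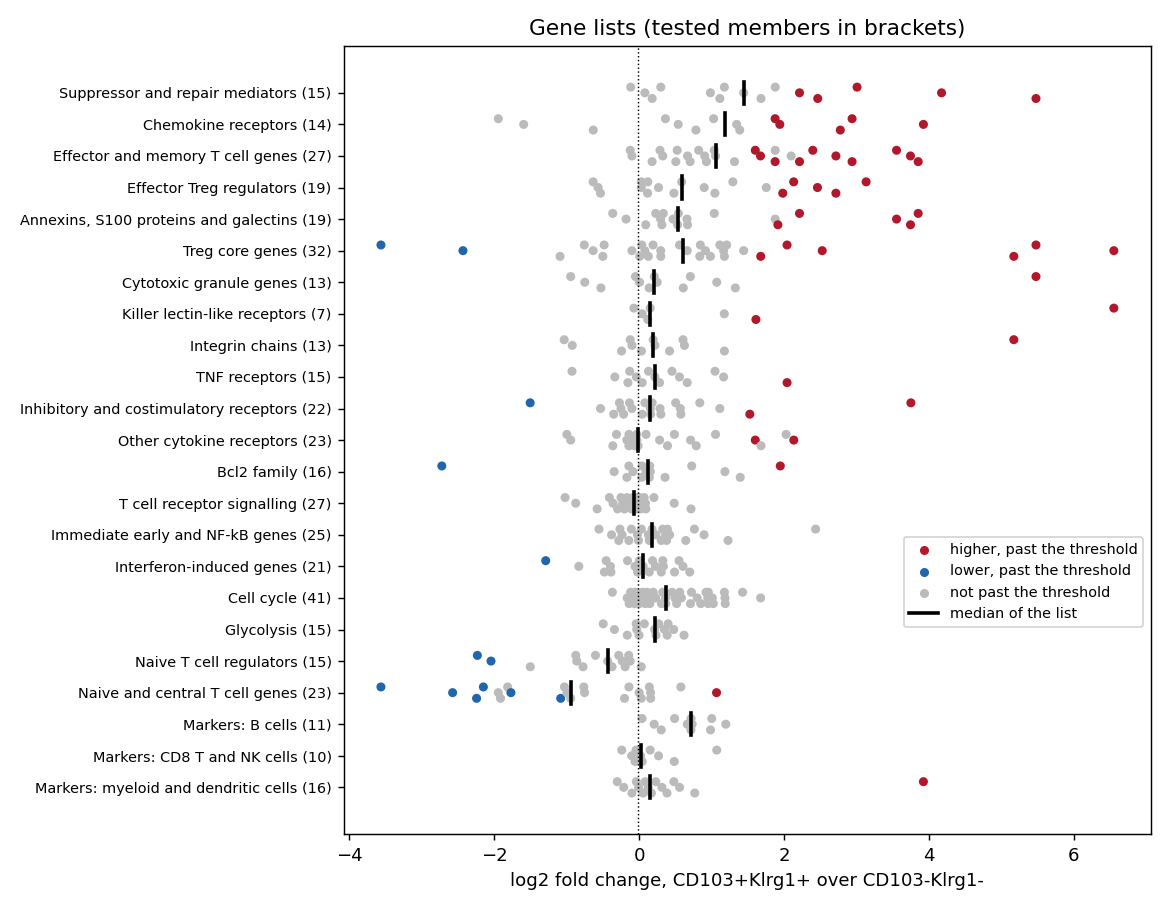
Log2 fold change of CD103+Klrg1+ over CD103-Klrg1- cells for every tested member (points) of the gene lists, with called genes coloured, a bar at each list's median and a dotted line at the median of all genes. The medians of the suppressor and chemokine receptor lists lie at 1.44 and 1.19, and that of the naive and central list at -0.95.

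Bcl2, which protects cells from apoptosis, fell. It averaged 10.27 ± 1.03 in CD103+Klrg1+ cells (SD, n = 2), where the first array was the lower at 9.55, and it read 12.49 and 12.18 in CD103+Klrg1- cells, and 12.79 and 13.21 in CD103-Klrg1- cells. The CD103+Klrg1+ arrays were apart from each other, yet both lay below all 4 other lymph node arrays. The difference was -2.73 ± 0.51 (limma adjusted p = 0.00406), with an adjusted p of 0.153 without the first CD103+Klrg1+ array, and the call was also lost without the second CD103-Klrg1- array. Bmf, a relative that promotes apoptosis by binding Bcl2, rose by 1.95 ± 0.28, with 9.23 and 9.38 in CD103+Klrg1+ cells, 7.72 and 8.39 in CD103+Klrg1- cells, and 7.34 and 7.37 in CD103-Klrg1- cells. The Bmf call was lost when the probe sets of each gene were averaged. Bcl2 and Bmf were the only 2 of 16 Bcl2 family genes called, against 2.1% of all genes tested. The median of the family was 0.12.

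Among 22 inhibitory and costimulatory receptors, 2 rose and 1 fell, with a median of 0.16, against 1.47% of all genes higher and 0.631% lower. Havcr2, which encodes the inhibitory receptor Tim-3, read 8.65 and 8.16 in CD103+Klrg1+ cells, 5.85 and 6.40 in CD103+Klrg1- cells, and 4.57 and 4.74 in CD103-Klrg1- cells. It was at least 4.41-fold higher (limma adjusted p = 2.88e-05), and both CD103-Klrg1- arrays were below the limit of reliable signal. Cd200r1, an inhibitory receptor, rose by 1.53 ± 0.38, a call lost in 8 of 21 alternative fits, among them those without any 1 of the 6 lymph node arrays and the one without a filter. Cd96, a receptor for nectin-like proteins, fell by 1.51 ± 0.28, with 9.10 and 9.01 in CD103+Klrg1+ cells against 10.78 and 10.34 in CD103-Klrg1- cells, a call lost without the first CD103-Klrg1- array. Tnfrsf1b, the tumour necrosis factor receptor that supports Treg cells, was the only one of 15 TNF receptors called, with a rise of 2.04 ± 0.39, and its probe sets differed in sign. Its call was lost without the first CD103+Klrg1+ or the second CD103-Klrg1- array, as was that of Nrn1, a small membrane protein that rose by 1.68 ± 0.31. In the list of 32 Treg core genes, 6 rose and 2 fell (median 0.61), against 1.47% of all genes higher and 0.631% lower. Of the 6 rises, Klrg1 and Itgae encode the sorted proteins, so their calls are no finding. The list also contains Gzmb and Gpr83, and the others called were Neb, Nrn1, Tnfrsf1b and Plagl1. Plagl1, a zinc finger factor, read 9.75 and 8.46 in CD103+Klrg1+ cells, 12.19 and 12.06 in CD103+Klrg1- cells, and 11.56 and 11.51 in CD103-Klrg1- cells. It was lower in CD103+Klrg1+ cells by 2.43 ± 0.47 on the log2 scale, and the call was lost without the second CD103+Klrg1+ array or either CD103-Klrg1- array, and when the probe sets of each gene were averaged.

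Several of the largest changes lay outside these lists. Sv2c, a synaptic vesicle protein, was at least 12.2-fold higher, with 9.70 and 10.05 in CD103+Klrg1+ cells, 6.86 and 6.80 in CD103+Klrg1- cells, and 6.02 and 6.11 in CD103-Klrg1- cells. Snai2, a zinc finger repressor known from epithelial-mesenchymal transition, was at least 2.96-fold higher. It read 7.71 and 7.96 in CD103+Klrg1+ cells, 5.48 and 5.18 in CD103+Klrg1- cells, and 4.22 and 4.01 in CD103-Klrg1- cells, so among the lymph node subsets it was above the limit in CD103+Klrg1+ cells alone. Msrb3, a methionine sulfoxide reductase, Arnt2, a partner of basic helix-loop-helix PAS factors, and Nav2, a cytoskeletal protein, were at least 9.07-fold, 7.23-fold and 8.05-fold higher. The differences of the Nav2 probe sets above the limit ranged from -0.08 to 3.30, and the one used had the largest. Among the falls, Ntn4, a netrin, was at least 3.54-fold lower, with 5.06 and 4.87 in CD103+Klrg1+ cells, 6.78 and 6.55 in CD103+Klrg1- cells, and 8.19 and 7.99 in CD103-Klrg1- cells. Khdc1a read 3.71 and 3.66 in CD103+Klrg1+ cells against 6.69 and 7.15 in CD103-Klrg1- cells. It entered the test through CD103-Klrg1- cells alone, the only group with a mean above the limit, so its values are a description, and its probe set may read close relatives. Tubb2a, a beta tubulin, was at least 5.02-fold lower, and Gsta4, a glutathione transferase, fell by 2.60 ± 0.32. Gata1, a factor best known from red cell development, fell by 2.34 ± 0.38, with 7.53 and 7.25 in CD103+Klrg1+ cells, 9.24 and 9.63 in CD103+Klrg1- cells, and 9.84 and 9.62 in CD103-Klrg1- cells. Evl, an actin regulator, and Ssbp2, a single-stranded DNA binding protein, fell by 2.19 ± 0.48 and 2.10 ± 0.27, and the Ssbp2 call was lost with the most variable probe set of each gene. H2-Q2, of a multigene family of class I molecules, was at least 1.56-fold lower, and its probe set may read near-identical relatives. The Tubb2a call was lost without the second CD103+Klrg1+ or the first CD103-Klrg1- array, that of H2-Q2 without the first array of either subset, and that of Evl without the first CD103+Klrg1+ or either CD103-Klrg1- array.

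Other pathways gave few or no calls, where 2.1% of all genes tested were called. limma called no gene in 10 lists with 181 genes, of which 11 had an unadjusted p under 0.05, against 852 of the 12516 genes tested. These lists held 27 of T cell receptor signalling, 41 of the cell cycle, 15 of glycolysis, 18 of cholesterol and fatty acid synthesis, 25 immediate early and NF-kB genes, 11 SOCS and STAT5 targets, 13 heat shock genes, 12 chemokines, 12 TNF ligands and 7 phosphodiesterases. The chemokine Ccl5 had 11.01 and 11.19 in CD103+Klrg1+ cells, 9.75 and 9.20 in CD103+Klrg1- cells, and 8.66 and 9.34 in CD103-Klrg1- cells. The Ccl5 arrays did not overlap, and its difference of 2.10 ± 0.60 missed the threshold (limma adjusted p = 0.1). Fos, an immediate early gene looked at after its values were seen, averaged 12.09 ± 0.67 in CD103+Klrg1+ cells and 9.66 ± 0.56 in CD103-Klrg1- cells (SD, n = 2 each). Its difference of 2.44 ± 1.26, with an SE from the spread within all 9 groups, was not called (limma adjusted p = 0.875). Of the 41 cell cycle genes, 33 had a difference above 0, with a median of 0.37, against 5955 of all 12516 genes. Rrm2, a ribonucleotide reductase subunit of dividing cells, read 11.13 and 10.24 in CD103+Klrg1+ cells and 10.07 and 8.45 in CD103-Klrg1- cells, with a large gap within each group (limma adjusted p = 0.321). Usp18, which limits interferon signalling, was the only one of 21 interferon-induced genes called, with 9.15 and 9.22 in CD103+Klrg1+ cells against 10.48 and 10.47 in CD103-Klrg1- cells, and its call was lost when any of these arrays was left out. Sgk1, a kinase downstream of PI3K, was the only one of 17 PI3K, Akt and Foxo genes called, with a rise of 1.70 ± 0.36. Its call was lost without the second CD103+Klrg1+ array or either CD103-Klrg1- array.

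The CD103+Klrg1- cells showed where along the marker series these changes lay. They were between the other subsets for 248 of the 263 called genes. For the other 15 they lay outside, 14 on the side of CD103-Klrg1- cells and 1 on that of CD103+Klrg1+ cells. The median share of the whole difference already present in CD103+Klrg1- cells was 0.439 for the 184 higher genes and 0.269 for the 79 lower genes. That share was above 0.5 in 71 higher and 10 lower genes. It was a description of genes selected by the difference between the outer subsets, and the steps were not called. Gpr15, Maf and Itgae were near their full level in CD103+Klrg1- cells, whereas most of the difference of Klrg1, Anxa1, Sv2c and Ccr10 lay between the CD103+ subsets. Among the lower genes, Bcl2 and Gpr83 stayed high in CD103+Klrg1- cells.

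**Figure D5:**
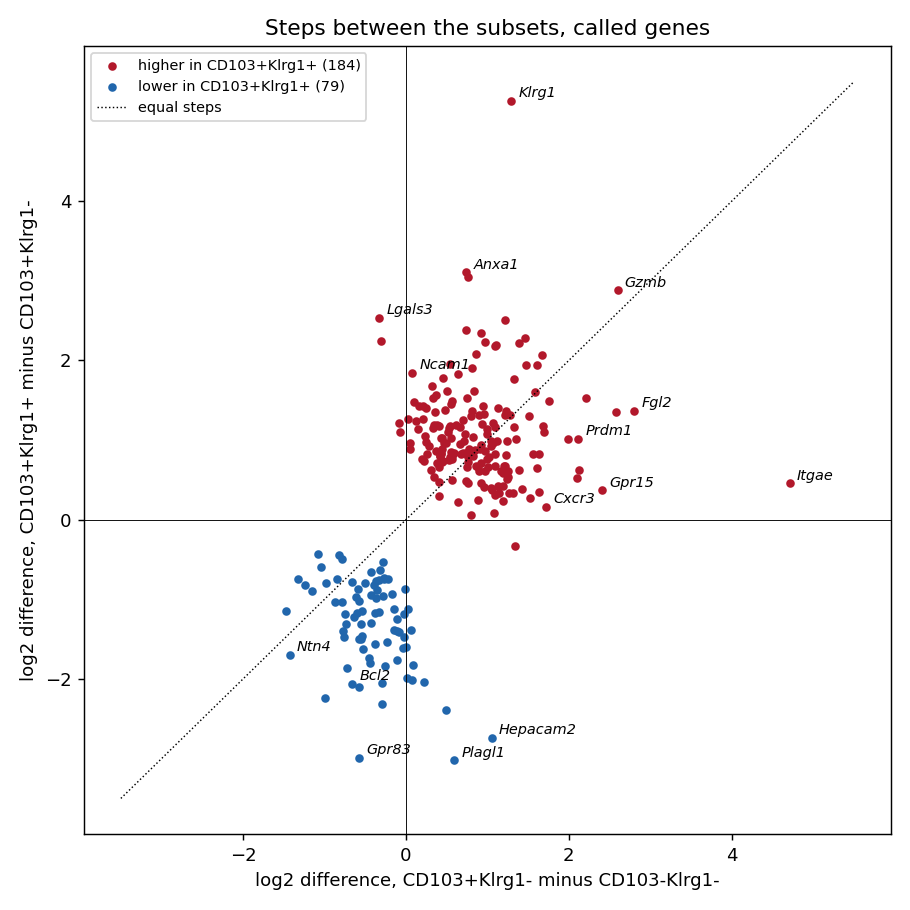
Log2 difference of CD103+Klrg1+ minus CD103+Klrg1- cells (vertical) against that of CD103+Klrg1- minus CD103-Klrg1- cells (horizontal) for the 263 called genes, 1 point per gene, with a dotted line where both steps are equal. Klrg1 lies far up the vertical axis and Itgae far along the horizontal one, and the 79 lower genes lie mostly below the line of equal steps.

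A separate test asked which genes in CD103+Klrg1- cells departed from the midpoint of the other subsets. It called 3 of 12516 genes (0.024%), with 141 at an unadjusted p under 0.05. The count depended on the fit, with 7 genes without the 2 dimmest DEC CD25- arrays and 26 with array weights. Gbp2b, an interferon-induced guanylate-binding protein, read 7.83 and 7.69 in CD103+Klrg1+ cells, 10.31 and 10.85 in CD103+Klrg1- cells, and 7.87 and 8.10 in CD103-Klrg1- cells. Among the lymph node subsets it was thus highest in CD103+Klrg1- cells, 2.71 above the midpoint (limma adjusted p = 0.0016), while it averaged 10.31 ± 0.52 in LP Treg cells (SD, n = 2) and 9.33 ± 0.34 in the CD25+ cells after DEC-HAPeptide (SD, n = 3). The call was lost without the second CD103+Klrg1- array (adjusted p = 0.143). Hepacam2, a cell adhesion protein, read 4.49 and 4.58 in CD103+Klrg1+ cells, 7.37 and 7.18 in CD103+Klrg1- cells, and 6.19 and 6.26 in CD103-Klrg1- cells, and only the CD103+Klrg1- arrays were above the limit. It entered the test through CD103+Klrg1- cells alone, so its call is not read as a result. The third called gene carries a provisional gene model name. Klrg1 itself missed the threshold in this test (limma adjusted p = 0.0927).

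The genes whose levels over all 23 arrays were most like those of Klrg1 were Agpat4, Tmbim1, Lgmn, Glipr1, Gpr15, Slc15a3, Cdkn2c, Jdp2, Rhbdf1 and Plxdc1, with Pearson correlations of 0.85 to 0.91. The arrays share tissues and groups, so this is a description. They include the 4 compared arrays, so the direction of these genes between CD103+Klrg1+ and CD103-Klrg1- cells was largely set by the choice and is not counted. Tmbim1, a membrane protein of the Bax inhibitor motif family, read 10.15 and 9.59 in CD103+Klrg1+ cells, 8.28 and 8.47 in CD103+Klrg1- cells, and 7.14 and 6.10 in CD103-Klrg1- cells. Cdkn2c, an inhibitor of cyclin-dependent kinases, read 9.97 and 10.19 in CD103+Klrg1+ cells, 9.27 and 9.29 in CD103+Klrg1- cells, and 8.56 and 8.34 in CD103-Klrg1- cells. Lgmn, a lysosomal protease, and Slc15a3, a lysosomal peptide transporter, were at least 3.95-fold and 4.12-fold higher. The calls of Glipr1, Jdp2, Lgmn and Rhbdf1 were lost without the first CD103+Klrg1+ array, those of Glipr1, Lgmn and Rhbdf1 also without the second CD103-Klrg1- array, those of Glipr1 and Rhbdf1 without the first, and that of Glipr1 without the second CD103+Klrg1+ array or with the most variable probe set.

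LP Treg cells of the same reporter strain shared some of these levels and not others, as means ± SD of 2 arrays in each group. Klrg1 averaged 14.16 ± 0.03 in CD103+Klrg1+ lymph node cells and 13.38 ± 0.17 in LP Treg cells, and Gzmb averaged 11.86 ± 0.03 in CD103+Klrg1+ lymph node cells and 13.22 ± 0.40 in LP Treg cells. Il10 averaged 9.86 ± 0.46 in CD103+Klrg1+ lymph node cells and 13.77 ± 0.34 in LP Treg cells, whereas Anxa1 averaged 10.26 ± 0.24 in CD103+Klrg1+ lymph node cells and 6.42 ± 0.22 in LP Treg cells. This contrast between tissues was not tested here.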

How the data were processed

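Affymetrix M430v2 arrays of mouse T cells were used. The deposited values are linear intensities that the authors summarised by RMA, per the submitters' processing notes, for 45101 probe sets, and no RMA version is given in the sources used here. RMA shrinks differences of dim probe sets, and array number limits the precision. Arrays were grouped by label. Log2 was taken without a pseudocount. Of the probe sets, 34945 had 1 gene symbol in the platform annotation, 932 had several and 9224, 64 controls among them, had none, and only those with 1 symbol were used. Where a gene of the 18193 had several probe sets, the one brightest on average was taken. Genes with at least 1 group mean above the median of all values (76.99 intensity, 6.27 log2) were kept. The limma fit (version 3.58.1, R 4.3.3) used 23 arrays and 9 group means, with 14 residual degrees of freedom and 3.48 prior ones, and two-sided tests. For a single gene, 2 against 2 arrays allow no exact permutation p below 0.333. The procedure was tested on simulated data with independent noise on every array, so correlation between same-numbered arrays was not covered. Tables and figures were made with Python 3.11.15.

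The genes named are the sort and marker genes, the 15 largest rises and falls among called genes without overlap, up to 6 called members of each gene list by p, the member with the smallest p where none was called, members called against their list's majority, up to 10 genes departing from the midpoint, and the 10 genes most like Klrg1. Clone names and receptor variable segments were counted and not named. Named outside that rule are genes said to be looked at after their values were seen, and marker genes of other cells. The arrays compared, the markers and the gene lists were chosen with earlier results of these data known, so counts in a list are no independent support. Alternatives changed the arrays, the pairing, the normalization, the probe set, the filter, the variance trend, the weights and an offset of 32.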

Additional observations from a re-analysis of the deposited data

How the results depend on the processing

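Across 21 alternative fits, the 263 genes called between CD103+Klrg1+ and CD103-Klrg1- cells kept their sign wherever they were tested. Only the other normalizations and probe set rules could have changed a sign. In the remaining fits it was fixed by the lack of overlap between the groups. The count was 467 with the 6 lymph node arrays alone, 398 without the 2 dimmest DEC CD25- arrays and 599 with array weights, and 226 to 302 under the other normalizations, filters, probe set rules, trend and offset. Leaving out 1 lymph node array gave 124 to 248 calls. For the departure of CD103+Klrg1- cells from the midpoint, with 3 calls, the count was 7 without the 2 dimmest DEC CD25- arrays and 26 with array weights, and 2 to 4 with 1 array left out. Where 1 array of a group remained, it was taken to vary like the others. The midpoint was not fitted with the 4 arrays alone. With the replicate block, 260 and 3 genes were called, and Cd200r1 and Id3 lost their calls. A block over the 6 lymph node arrays alone, added after seeing the data, gave 1095 and 23. Deviations from the group means correlated at 0.374, 0.72 and 0.387 between same-numbered arrays of the 3 pairs of subsets, which share only a number in the labels. Of 68 named called genes, 63 were tested in all 21 alternatives, and 32 of these 63 kept their call throughout. H2-Q2, Havcr2, Hepacam2, Khdc1a and Snai2 were tested in 20, where H2-Q2 lost its call and the other 4 kept it. Over the 68, 32 lost the call in at least 1 alternative, and none reversed. The cause of these shifts was not tested. Dim genes have only a bound.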

Other observations

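The genes below were outside the gene lists and were picked from the called genes after their values were seen, so they stand as single genes and for no pathway. Casp1, the protease that activates interleukin-1 family cytokines, read 8.72 and 8.84 in CD103+Klrg1+ cells, 7.98 and 8.06 in CD103+Klrg1- cells, and 7.32 and 7.67 in CD103-Klrg1- cells, a rise of 1.28 ± 0.22 (limma adjusted p = 0.00208). Tirap, an adaptor of Toll-like receptors, rose by 2.06 ± 0.20, with 9.06 and 8.95 in CD103+Klrg1+ cells against 6.97 and 6.92 in CD103-Klrg1- cells. Naip5 and Naip6, sensors of bacterial flagellin, rose by 2.50 ± 0.53 and 1.41 ± 0.23, and since the Naip genes are close copies their probe sets may read each other. Il18, a substrate of Casp1, was at least 2.62-fold higher. The calls of Casp1, Naip5 and Il18 were lost without the first CD103-Klrg1- array, those of Naip5 and Il18 also without the second or without the first CD103+Klrg1+ array, and that of Il18 without the second CD103+Klrg1+ array. The myeloid sums without Ccr2 were 1877.9 to 3114.4 in CD103+Klrg1+ cells and 1801.6 to 2082.1 in CD103-Klrg1- cells. Whether myeloid cells had a part in the values of these 5 genes, Casp1, Tirap, Naip5, Naip6 and Il18, was not tested.

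Fmnl2, a formin, read 9.79 and 10.66 in CD103+Klrg1+ cells, 8.64 and 8.61 in CD103+Klrg1- cells, and 6.75 and 7.33 in CD103-Klrg1- cells, a rise of 3.18 ± 0.61. Raph1, which promotes actin protrusions, rose by 2.59 ± 0.43, with 10.66 and 11.12 in CD103+Klrg1+ cells against 8.09 and 8.51 in CD103-Klrg1- cells. Afap1, an actin filament protein, fell by 2.05 ± 0.34, and Myo6, a myosin, was at least 3.09-fold lower. P2rx7, a receptor for extracellular ATP, read 8.70 and 7.70 in CD103+Klrg1+ cells, 10.25 and 10.13 in CD103+Klrg1- cells, and 10.26 and 10.09 in CD103-Klrg1- cells, and fell by 1.97 ± 0.36 (limma adjusted p = 0.00379). The calls of Fmnl2 and P2rx7 were lost without the second CD103+Klrg1+ or the first CD103-Klrg1- array, that of Afap1 without the first CD103+Klrg1+ or the second CD103-Klrg1- array, and those of P2rx7 and Afap1 also with the 4 compared arrays alone.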
